A study of Rattus norvegicus with 4 samples.

Results

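Antioxidant enzymes were followed as 10 transcripts, found by gene symbol among the 18755 genes listed for each library: Sod1, Sod2, Gpx1, Gpx4, Prdx1, Prdx2, Prdx5, Txn1, Gclm and Hmox1. All 10 were found, and each passed the filter on low values, an FPKM (the read count scaled to gene model length and library size) no lower than 1 in some library, which 12394 genes passed. The RNA came from cortical cells of embryonic day 16 rats of the Sprague Dawley strain, seeded at 100000 cells per well and kept for 24 h in Neurobasal medium with B27. The cells grew on one of 4 hydrogels, named N-SFMA, L-SFMA, NL-SFMA and SFMA, with 5 parallel wells per hydrogel and 1 poly(A) RNA library each. The labels give no genetic change or added agent, and the sources used here state neither the meaning of the letters nor whether the wells were pooled. The series asks about adhesion between cells and the growth of neural cells on such gels, so the question here is how transcripts of the antioxidant defence stood in cells on each hydrogel.

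Respiring cells leak superoxide, which superoxide dismutases turn into hydrogen peroxide. Glutathione peroxidases and peroxiredoxins then reduce the peroxide with electrons from glutathione and thioredoxin, which are recharged with NADPH. Many of these genes are targets of NRF2, a transcription factor that binds the antioxidant response element together with small Maf proteins and that KEAP1 holds back in unstressed cells. Neurons make less glutathione than glia and depend in part on neighbouring glia for its precursors.

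With 1 library per hydrogel, no difference could be compared with a spread between replicates, and no p-value is given. Intervals in brackets are exact 95% intervals of the read counts and cover counting error only. They hold no spread between replicates. Since reads copied by PCR are not independent molecules, they can be too narrow even for counting error. Summed counts per library ran between 14172205 and 17553098. All 6 neuronal and all 6 excitatory cortical neuron markers were present in every library, the lowest value being 16.6 FPKM (Bcl11b on SFMA), and the endothelial and meningeal fibroblast markers found were each under 1 FPKM in every library. Mitochondrially encoded genes took 5.89% of the reads on NL-SFMA, against 2.23% to 2.68% in the other libraries.

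Prdx1, Gclm, Sod2 and Prdx5 carried the antioxidant response element core in the RefSeq promoter windows of the GRCr8 build, which reach from 250 bases before to 50 bases after a gene's start. The core was searched as TGACNNNGC on both strands. Windows were matched by symbol for 9 of the 10 genes, with 3 windows for Gpx4, and Hmox1 had no entry. A match was present for 4 of these 9 genes, against 12.1% of all 33469 windows and 15.6% of the 9230 tested genes with a window. The stretches around the 4 matches are shown because 2 of these genes, Prdx1 and Gclm, were higher on NL-SFMA than on both hydrogels with 1 letter. Capitals mark the core, which lies on the opposite strand in each case.
Prdx1: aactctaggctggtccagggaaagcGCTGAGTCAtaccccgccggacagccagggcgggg
Gclm: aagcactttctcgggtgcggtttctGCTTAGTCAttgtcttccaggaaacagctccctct
Sod2: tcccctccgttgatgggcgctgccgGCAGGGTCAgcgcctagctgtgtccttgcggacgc
Prdx5: tttgtacccacctcctgtggGCAGAGTCA
The Prdx1 stretch is chr5:135383746-135383805 on the plus strand, with the core at positions -135 to -127 from the start base, counted as 0. The Gclm stretch is chr2:213031938-213031997, plus strand, with the core at -172 to -164. The Sod2 stretch is chr1:50050169-50050228, minus strand, with the core at -35 to -27, and the Prdx5 stretch is chr1:213532020-213532048, minus strand, with the core at -1 to 7. Read on its own strand, the core was TGACTCAGC in Prdx1, TGACTAAGC in Gclm, TGACCCTGC in Sod2 and TGACTCTGC in Prdx5. A match is a description of the letters, and its absence from the windows of Sod1, Gpx1, Gpx4, Prdx2 and Txn1 concerns these windows only. Of the 17 other NRF2 target genes with a window, 4 held the core (Txnrd1, Me1, Gstp1 and Ephx1).

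Per unit of length, Prdx2 had the highest level of the 10 transcripts in every library, and it held rank 44 on N-SFMA, 40 on L-SFMA, 79 on NL-SFMA and 48 on SFMA among all listed genes. On SFMA the order by FPKM was Prdx2, Prdx1, Gpx4, Txn1, Sod1, Gpx1, Prdx5, Sod2, Hmox1 and Gclm. The counting intervals of Gpx4 and Txn1, and those of Hmox1 and Gclm, overlapped there. The overlapping neighbours were Prdx1 and Txn1, and Gclm and Hmox1, on N-SFMA, and Sod1 and Gpx1, and Sod2 and Gclm, on L-SFMA. On NL-SFMA Txn1 and Gpx4, Gpx1 and Sod1, and Gclm and Prdx5 overlapped, and Hmox1 was lowest. Together the 10 genes took 0.193% of the reads on N-SFMA (0.191 to 0.195), 0.171% on L-SFMA (0.169 to 0.173), 0.109% on NL-SFMA (0.107 to 0.111) and 0.290% on SFMA (0.288 to 0.293). Their combined share was thus lower on all 3 modified hydrogels and lowest on NL-SFMA. Prdx2 alone gave 49.3% of these reads on N-SFMA, 46.5% on L-SFMA, 43.0% on NL-SFMA and 41.9% on SFMA, so the share leans on this gene.

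**Figure D1:**
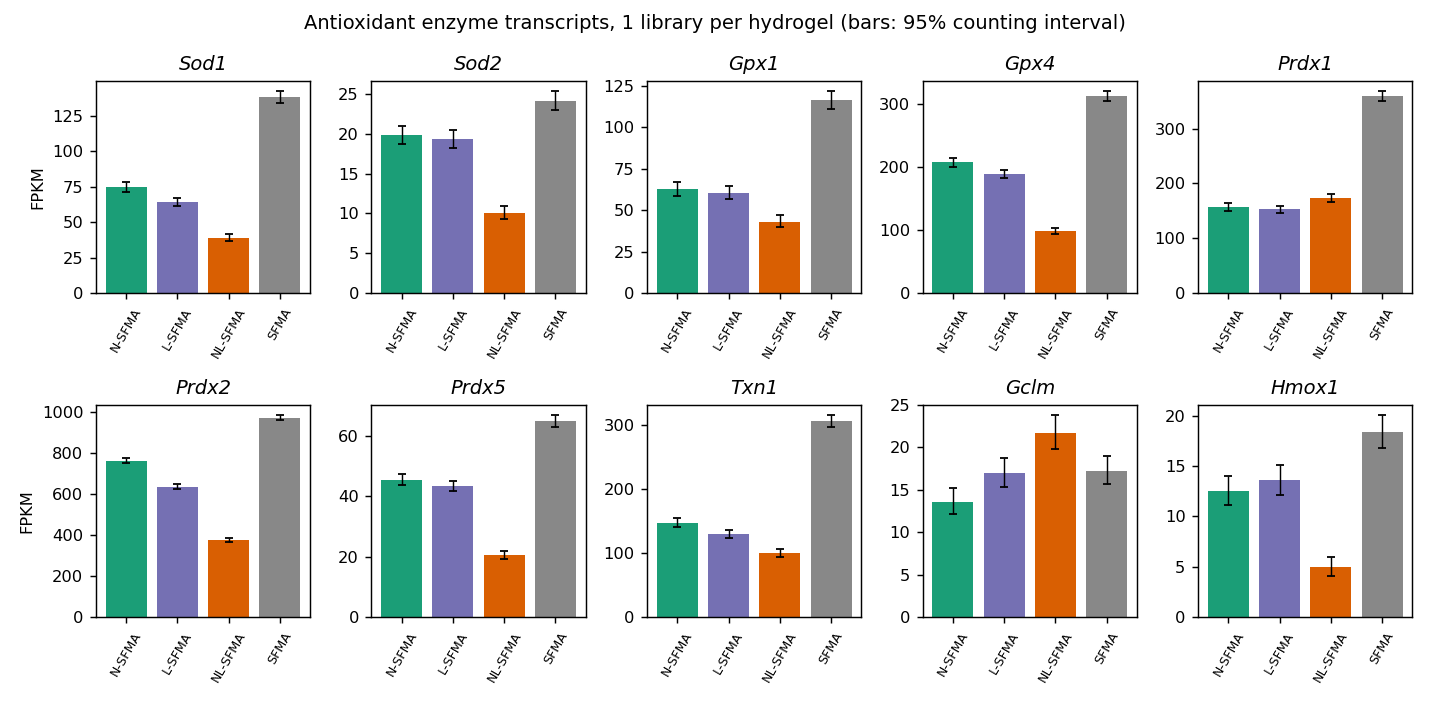
FPKM of each antioxidant enzyme transcript in the 4 libraries (linear axes from 0, 1 bar per library, error bars for the 95% counting interval). In 9 of the 10 panels SFMA is the highest bar; Gclm is highest on NL-SFMA at 21.7 FPKM.

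The superoxide dismutases were lower on every modified hydrogel. Sod1, the copper-zinc enzyme of the cytosol, was at 74.7 FPKM on N-SFMA, 64.1 on L-SFMA, 39.2 on NL-SFMA and 138 on SFMA. It was 1.85-fold lower on N-SFMA (1.76 to 1.95), 2.16-fold lower on L-SFMA (2.04 to 2.28) and 3.53-fold lower on NL-SFMA (3.29 to 3.78). Sod2, the manganese enzyme of the mitochondrial matrix, was at 19.9, 19.3 and 10.1 FPKM on N-SFMA, L-SFMA and NL-SFMA, against 24.1 on SFMA. It was 1.22-fold lower on N-SFMA (1.13 to 1.31), 1.25-fold lower on L-SFMA (1.16 to 1.35) and 2.39-fold lower on NL-SFMA (2.17 to 2.63). Sod2 and Prdx5 have the longest gene models of the 10, at 3881 and 3597 bases.

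The glutathione peroxidases followed the same order of hydrogels. Gpx1, a selenoenzyme that reduces hydrogen peroxide, was at 62.7 FPKM on N-SFMA, 60.5 on L-SFMA, 43.1 on NL-SFMA and 116 on SFMA, which made it 2.69-fold lower on NL-SFMA (2.45 to 2.97). Gpx4, the selenoenzyme that reduces lipid peroxides in membranes and guards against ferroptosis, was at 207, 189 and 97.8 FPKM on N-SFMA, L-SFMA and NL-SFMA, against 312 on SFMA. Gpx4 was 3.19-fold lower on NL-SFMA than on SFMA (3.02 to 3.37), against 1.51-fold on N-SFMA (1.45 to 1.57) and 1.65-fold on L-SFMA (1.59 to 1.72).

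The peroxiredoxins split. Prdx1, a cytosolic peroxiredoxin and NRF2 target, was at 157 FPKM on N-SFMA, 153 on L-SFMA, 173 on NL-SFMA and 359 on SFMA. All 3 modified hydrogels lay near the same level, 2.29-fold (2.18 to 2.40), 2.35-fold (2.24 to 2.46) and 2.07-fold (1.98 to 2.18) lower than SFMA for N-SFMA, L-SFMA and NL-SFMA. Prdx2, the main cytosolic peroxiredoxin of neurons, was at 763, 636 and 375 FPKM on N-SFMA, L-SFMA and NL-SFMA, against 974 on SFMA. Prdx5, found in mitochondria, peroxisomes and the cytosol, was at 45.5, 43.3 and 20.5 FPKM on the same 3 hydrogels, against 64.9 on SFMA. Prdx2 and Prdx5 were thus lowest on NL-SFMA, by 2.60-fold (2.52 to 2.67) and 3.16-fold (2.96 to 3.39) against SFMA. A near copy of Prdx1 is listed as Prdx1l1, with a gene model of 964 bases against 963 for Prdx1 and a level of 16.4% of Prdx1 on N-SFMA, 15.7% on L-SFMA, 17.8% on NL-SFMA and 12.8% on SFMA. Reads could have been shared between these genes, and the sources used here do not say how reads with several positions were counted.

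The genes that supply reducing power went apart. Txn1, the cytosolic thioredoxin that recharges peroxiredoxins, was at 147 FPKM on N-SFMA, 130 on L-SFMA, 99.8 on NL-SFMA and 306 on SFMA, 3.07-fold lower on NL-SFMA (2.88 to 3.28). Gclm, the modifier subunit of the ligase that begins glutathione synthesis, was at 13.6, 17.0 and 21.7 FPKM on N-SFMA, L-SFMA and NL-SFMA, against 17.3 on SFMA. Gclm was the exception among the 10, with a ratio to SFMA of 1.26 on NL-SFMA (1.10 to 1.44), 0.984 on L-SFMA (0.858 to 1.13) and 0.786 on N-SFMA (0.678 to 0.911). It has few reads, with 311, 412 and 458 on N-SFMA, L-SFMA and NL-SFMA, against 450 on SFMA.

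Hmox1, the inducible enzyme that opens haem and releases iron, was at 12.5 FPKM on N-SFMA, 13.6 on L-SFMA, 4.97 on NL-SFMA and 18.4 on SFMA. Its NL-SFMA level, 109 reads against 500 on SFMA, was 3.70-fold lower (3.00 to 4.60), against 1.47-fold on N-SFMA (1.27 to 1.70) and 1.36-fold on L-SFMA (1.18 to 1.56). Macrophages make much haem oxygenase. The summed level of the 9 microglia and macrophage markers found of 10 was 19.99 FPKM on N-SFMA, 33.3 on L-SFMA, 12.9 on NL-SFMA and 53.4 on SFMA. C1qa and C1qc were at 0 on NL-SFMA, but at only 0.232 and 0.357 FPKM on SFMA, and under 1 FPKM in every library. Lyz2 (4.85 FPKM on NL-SFMA, against 26.6 on SFMA) and Tyrobp (3.20, against 15.7) led the sum. Csf1r differed less (2.08, against 2.86), and Ptprc was slightly higher on NL-SFMA (0.186, against 0.162). The part of these cells in the Hmox1 result was not tested. In bulk RNA, fewer cells of a type and less RNA per cell cannot be told apart, here or in the results that follow.

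Counted at 2-fold on the log2(FPKM + 1) scale, which understates the change of low genes, 9 of the 10 were lower on NL-SFMA than on SFMA and 0 higher. Over all tested genes 15.1% were lower and 10.1% higher in that comparison. On L-SFMA 3 of 10 were lower (Sod1, Prdx1 and Txn1), where 3.04% of all tested genes were lower, and on N-SFMA 2 of 10 (Prdx1 and Txn1), where 2.65% were. The count higher was 0 of 10 on both, beside 3.32% of tested genes on L-SFMA and 0.855% on N-SFMA. The median log2 difference of the 10 from SFMA was -1.51 for NL-SFMA, where all tested genes had -0.10. It was -0.67 for L-SFMA (all tested genes 0.05) and -0.56 for N-SFMA (all tested genes -0.02). These comparisons share the SFMA library. Prdx1 lay nearest to the 2-fold limit on NL-SFMA, at -1.05, and was inside it under TMM scaling (-0.98), as Sod2 was with a pseudocount of 5 FPKM.

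**Figure D2:**
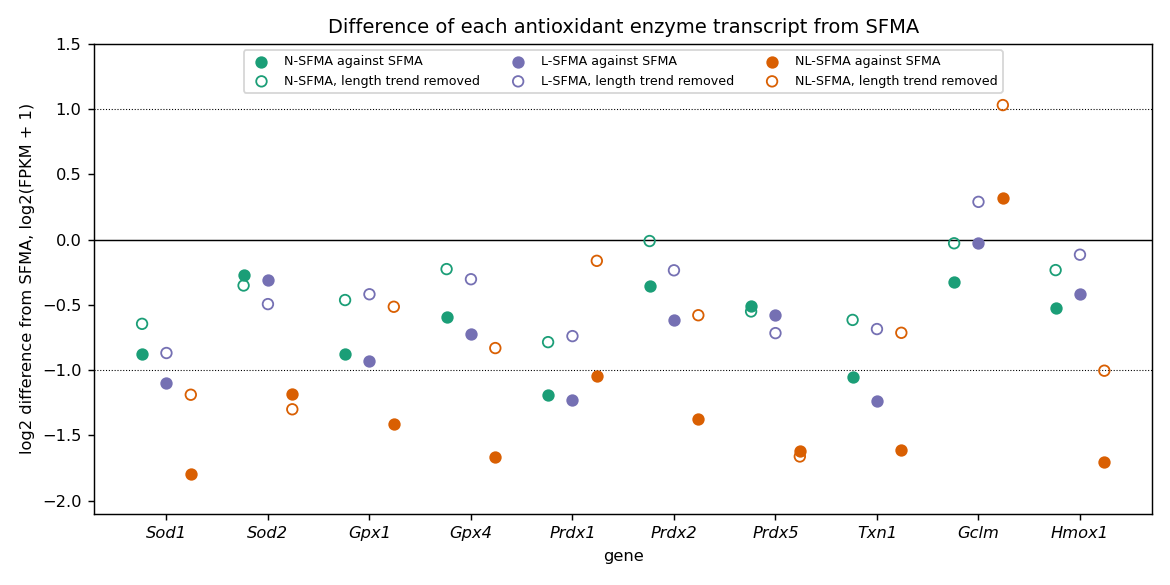
Log2 difference of each transcript from SFMA on the log2(FPKM + 1) scale for N-SFMA, L-SFMA and NL-SFMA (filled points), and the same with the trend on gene model length removed (open points); dotted lines mark 2-fold. Filled NL-SFMA points lie below -1 for 9 genes, open ones for 4.

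Gene model length moved with these differences. Across the 12394 tested genes, which are not independent replicates, the log2 difference between NL-SFMA and SFMA correlated with log2 length at r = 0.50, with shorter genes lower on NL-SFMA. The antioxidant genes had a median length of 1368 bases, against 2968.5 for the tested genes, and 8 of 10 were shorter than that median. A smooth trend fitted across all tested genes ran at -0.75 for the median of the 10 on NL-SFMA, -0.35 on L-SFMA and -0.32 on N-SFMA. With the trend subtracted, Prdx5 (-1.66), Sod2 (-1.30), Sod1 (-1.19) and, at the limit, Hmox1 were still 2-fold lower on NL-SFMA, where 7.42% of all tested genes were, and Gclm (1.03) was 2-fold higher, where 8.07% were. Gpx4 (-0.83), Txn1 (-0.71), Prdx2 (-0.58), Gpx1 (-0.51) and Prdx1 (-0.16) were then within 2-fold, and the median of the 10 was -0.77. On N-SFMA and L-SFMA 0 of 10 were past 2-fold with the trend removed, beside 1.33% and 1.3% of tested genes lower and 1.07% and 2.31% higher, and the medians were -0.41 and -0.46. Sod2 and Prdx5, the long members, lay where the trend was near 0, at 0.12 and 0.05 on NL-SFMA.

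**Figure D3:**
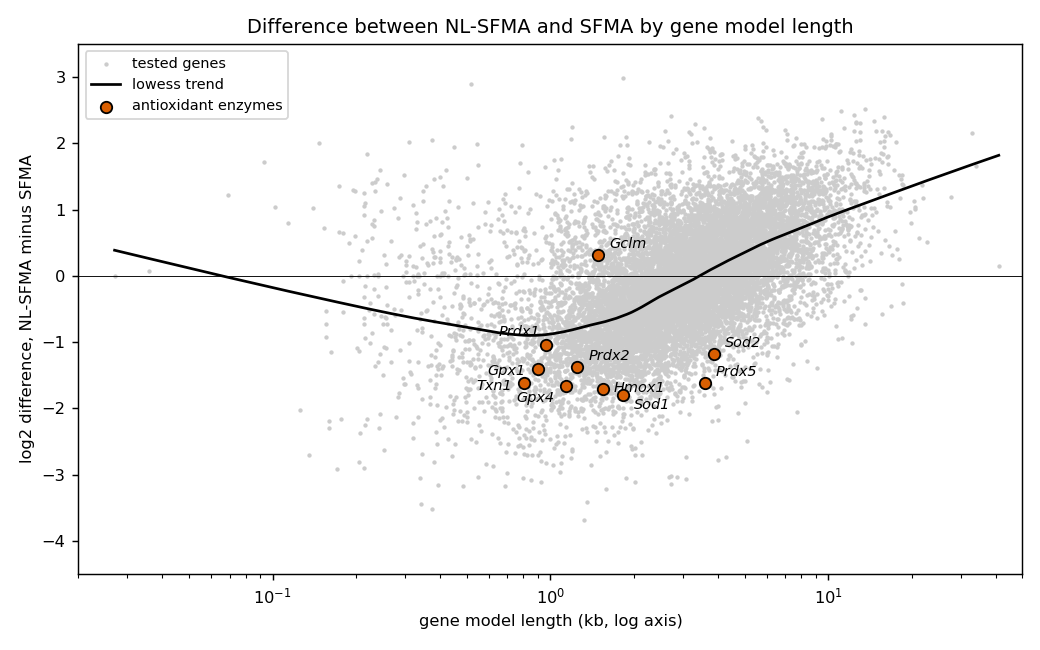
Log2 difference between NL-SFMA and SFMA against gene model length (log axis, kb) for 12394 tested genes (grey), with the lowess trend (line) and the antioxidant enzymes (orange). Gclm lies above the line by 1.03, and Prdx5, Sod2, Sod1 and Hmox1 lie 2-fold or more below it.

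The step to both letters was read against each hydrogel with 1 letter. Against N-SFMA, Hmox1 (2.52-fold, 2.02 to 3.17), Prdx5 (2.22-fold, 2.06 to 2.39), Gpx4 (2.12-fold, 2.00 to 2.25) and Prdx2 (2.03-fold, 1.97 to 2.09) were lower on NL-SFMA, 4 of 10 beside 5.58% of tested genes. With the length trend removed 1 of 10 was lower (Prdx5, beside 2.44%) and 1 higher (Gclm, beside 2.74%). Against L-SFMA, Hmox1 (2.73-fold, 2.19 to 3.42) and Prdx5 (2.11-fold, 1.96 to 2.27) were lower on NL-SFMA, 2 of 10 beside 6.87%, and with the length trend removed neither was past 2-fold (0 of 10 lower beside 2.95%, and 0 higher beside 2.11%). Under TMM scaling Prdx2 against N-SFMA and Prdx5 against L-SFMA were inside 2-fold. The count higher on NL-SFMA was 0 of 10 in both, beside 2.15% and 0.871%. Prdx1 and Gclm were higher on NL-SFMA than on both: Prdx1 1.10-fold against N-SFMA (1.04 to 1.17) and 1.13-fold against L-SFMA (1.07 to 1.20), and Gclm 1.60-fold (1.39 to 1.86) and 1.28-fold (1.12 to 1.47). These 2 genes carry the cores TGACTCAGC and TGACTAAGC shown above. Sod2 and Prdx5, which also hold a match, were lower on NL-SFMA than on either. The part of the core in any of these levels was not tested.

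L-SFMA and N-SFMA differed little from each other. The count past 2-fold was 0 of 10 in both directions, beside 0.25% of tested genes lower and 0.379% higher on L-SFMA, and the median was -0.06. With the length trend removed the count was again 0 of 10, beside 0.226% lower and 0.371% higher. Gclm was 1.25-fold higher on L-SFMA than on N-SFMA (1.08 to 1.45), Prdx2 1.20-fold lower (1.17 to 1.23) and Sod1 1.17-fold lower (1.10 to 1.24). The intervals of Sod2, Gpx1, Prdx1, Prdx5 and Hmox1 included a ratio of 1.

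If each letter in a name shifted a transcript by the same factor with and without the other, the NL-SFMA difference from SFMA would be the sum of the N-SFMA and L-SFMA differences. The observed log2 value minus that sum was 1.37 for Prdx1 (1.26 to 1.47, here a normal approximation from the 4 read counts), 0.68 for Txn1 (0.54 to 0.81), 0.67 for Gclm (0.38 to 0.95), 0.40 for Gpx1 (0.21 to 0.59) and 0.18 for Sod1 (0.05 to 0.32). These 5 genes were less reduced on NL-SFMA than the sum, or higher. It was -0.35 for Gpx4 (-0.46 to -0.25), -0.41 for Prdx2 (-0.46 to -0.35), -0.54 for Prdx5 (-0.66 to -0.41), -0.60 for Sod2 (-0.78 to -0.42) and -0.77 for Hmox1 (-1.14 to -0.39), which were further below SFMA than the sum. The value was past 2-fold for Prdx1 alone among the 10, beside 2.94% of all tested genes higher and 3.95% lower. The median was -0.09 over the 10 and -0.13 over all tested genes.

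**Figure D4:**
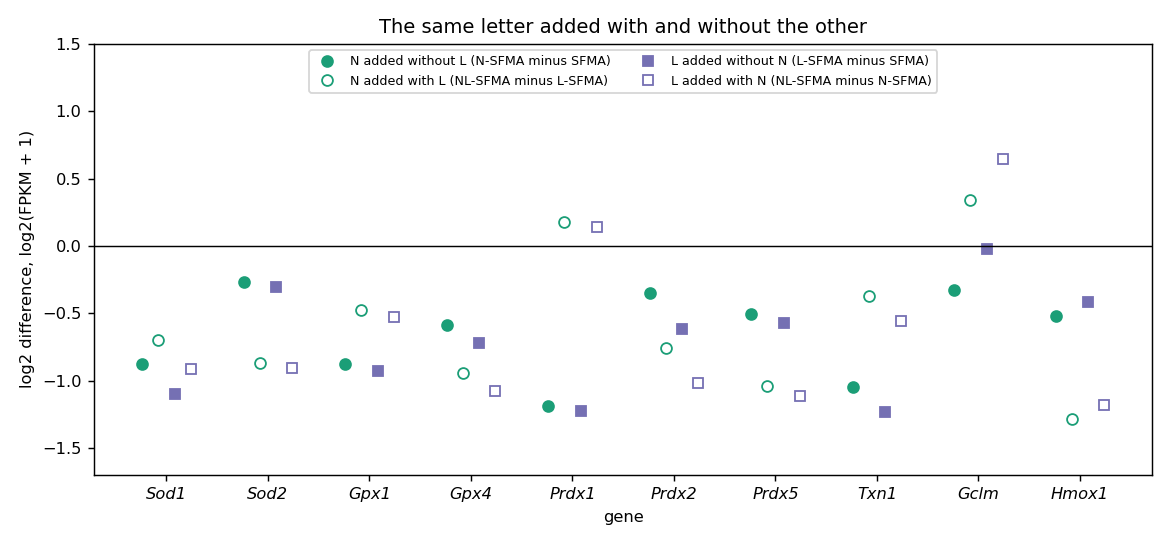
Log2 difference on the log2(FPKM + 1) scale for each letter added without the other (filled) and with it (open), circles for N and squares for L. Prdx1 is at -1.19 for N and -1.23 for L alone, and at 0.18 and 0.14 when each is added to the other; Hmox1, Sod2, Prdx5, Prdx2 and Gpx4 have their open points below the filled ones.

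Other genes of the same pathways numbered 79 tested of 95 listed. On NL-SFMA 19 of the 79 (24.1%) were 2-fold lower and 4 (5.06%) higher than on SFMA, beside 15.1% and 10.1% of all tested genes. With the length trend removed 8 (10.1%) were lower and 3 (3.80%) higher, beside 7.42% and 8.07% of all tested genes. On L-SFMA 2 were lower (2.53%) and 3 higher (3.80%), near the 3.04% and 3.32% of all tested genes. On N-SFMA 2 were lower (2.53%) and 0 higher, beside 2.65% and 0.855%. The median on NL-SFMA was -0.50, or -0.23 with the trend removed. The named genes are those with the largest differences on NL-SFMA in each group, plus Srxn1, Maff, Slc7a11, Fth1 and Msrb2, which were picked after their values were seen because they complete a count.

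Partners of the dismutases and peroxidases differed in direction. Ccs, the copper chaperone that loads Sod1, was at 27.0 FPKM on N-SFMA, 30.7 on L-SFMA, 7.32 on NL-SFMA and 43.3 on SFMA, and its log2 difference on NL-SFMA was -2.41 (-1.55 with the length trend removed). Among other glutathione peroxidases and catalase 0 of 3 were past 2-fold, beside 15.1% of all tested genes lower and 10.1% higher. Their median on NL-SFMA was -0.25, and 0.37 with the length trend removed. Gpx8, a peroxidase of the endoplasmic reticulum, was at 10.4 FPKM on NL-SFMA and 18.6 on SFMA. Catalase (Cat), the peroxisomal enzyme that splits hydrogen peroxide, was at 27.7, 36.8 and 34.4 FPKM on N-SFMA, L-SFMA and NL-SFMA, against 25.97 on SFMA. Of 4 other genes of the peroxiredoxin group, 1 was 2-fold lower on NL-SFMA and 0 higher, beside the same shares. It was Srxn1, which repairs overoxidised peroxiredoxins, at 0.258 FPKM against 2.78 on SFMA. With a gene model of 820 bases, its NL-SFMA level rests on very few reads. Srxn1 was inside 2-fold with the length trend removed (-0.69). Prdx3, the mitochondrial peroxiredoxin, was at 41.6 FPKM on NL-SFMA and 58.3 on SFMA. Prdx4, the peroxiredoxin of the endoplasmic reticulum, was at 29.1 and 54.3, and Prdx6, which uses glutathione, at 11.1 and 16.2. Prdx6 was the gene of this group past 2-fold with the trend removed (-1.06).

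In the thioredoxin and glutaredoxin group 2 of 11 (18.2%) were 2-fold lower on NL-SFMA, near the 15.1% of all tested genes. The count higher was 0 of 11, beside 10.1%. The lower genes were Glrx5, a mitochondrial glutaredoxin of iron-sulfur cluster assembly (13.1 FPKM, against 39.5 on SFMA), and Txnrd2, the mitochondrial thioredoxin reductase (4.73 FPKM, against 10.7). Glrx5 (-1.21) was past 2-fold with the length trend removed and Txnrd2 (-0.49) was not. The mitochondrial thioredoxin Txn2 was at 28.3 FPKM on NL-SFMA and 53.3 on SFMA, and nucleoredoxin (Nxn) at 9.08 and 18.5. In glutathione synthesis and recycling 1 of 12 was higher and 0 lower, beside 10.1% and 15.1% of all tested genes. The median of that list was -0.31, and 0.10 with the length trend removed. The higher gene was Slc7a11, the cystine importer, at 0.805, 0.882 and 2.11 FPKM on N-SFMA, L-SFMA and NL-SFMA, against 0.417 on SFMA, and it was inside 2-fold with the trend removed (0.87). Slc1a1, a neuronal carrier of glutamate and cysteine, was at 12.0 FPKM on NL-SFMA and 6.35 on SFMA, a log2 difference of 0.82, and it was past 2-fold with the length trend removed (1.22). Gss, glutathione synthetase, was at 5.32 and 9.85 FPKM, Slc3a2, the partner chain of the cystine importer, at 143 and 203, and Chac1, which breaks down glutathione, at 14.98 and 29.3.

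Genes of the haem oxygenase pathway and of iron storage were mostly lower. On NL-SFMA 5 of 7 were 2-fold lower and 0 higher, beside 15.1% and 10.1% of all tested genes, with a median of -1.12. With the length trend removed the median was -0.43, and 1 of 7 (Ftl1) was lower, beside 7.42%. The 5 lower genes were the biliverdin reductases Blvra (8.48 FPKM, against 21.4 on SFMA) and Blvrb (4.61, against 13.9), the haem transporter Slc48a1 (34.6, against 76.1), and the ferritin chains Ftl1 (264, against 838) and Fth1 (761, against 1547). The symbol Ftl1 has a second row near 0, and the row with the higher level was used. Red blood cells are rich in Prdx2, Gpx1 and Blvrb, and the summed level of the 7 erythroid markers found of 11 was 166 FPKM on N-SFMA, 93.5 on L-SFMA, 73.2 on NL-SFMA and 560 on SFMA, with none at 0. Haemoglobin genes took 0.0456%, 0.0256% and 0.0195% of the reads on N-SFMA, L-SFMA and NL-SFMA, against 0.151% on SFMA. The part of erythroid RNA in the results for Prdx2, Gpx1 and Blvrb was not tested.

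Among NRF2 and its regulators 2 of 10 were 2-fold higher on NL-SFMA and 1 lower, beside 10.1% and 15.1% of all tested genes. The higher genes were Bach1, the repressor that competes with NRF2 at the Hmox1 gene, at 14.1, 17.5 and 20.5 FPKM on N-SFMA, L-SFMA and NL-SFMA, against 7.69 on SFMA, and its relative Bach2, at 6.36, 10.1 and 12.5 FPKM, against 4.08. With the length trend removed Bach1 was at 1.37 and Bach2 at 0.95 on NL-SFMA. The lower gene was the small Maf gene Maff (0.826 FPKM on NL-SFMA, against 3.89 on SFMA). Maff stayed past 2-fold with the length trend removed (-1.11). The list then had 1 of 10 lower and 1 higher, beside 7.42% and 8.07% of all tested genes. Cul3, the ubiquitin ligase scaffold that works with KEAP1, was at 46.4 FPKM on NL-SFMA and 24.2 on SFMA, and Sqstm1, which binds KEAP1, at 70.4 and 128. Of 15 other NRF2 targets, 5 were lower and 1 higher, beside the same 15.1% and 10.1%. The lower genes were Gstp1, Taldo1, Gsta4, Nqo1 and, on very few reads, Srxn1, and the higher gene was Slc7a11. The quinone reductase Nqo1 was at 6.31, 10.2 and 6.41 FPKM on N-SFMA, L-SFMA and NL-SFMA, against 14.6 on SFMA, and the glutathione transferase Gstp1 at 240, 205 and 149 FPKM, against 397. With the length trend removed 0 of these 15 were past 2-fold in either direction, beside 7.42% of all tested genes lower and 8.07% higher.

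Selenoprotein synthesis, which Gpx1 and Gpx4 need for their selenocysteine, had 1 of 8 lower on NL-SFMA and 1 higher, near the 15.1% and 10.1% of all tested genes. The lower gene was Trnau1ap (17.6 FPKM, against 38.1 on SFMA). The higher gene was Lrp8, a receptor for selenoprotein P and reelin (27.3, against 11.2). The median of the list was -0.16, and 0.02 with the length trend removed, where Lrp8 was past 2-fold (1.15) and Trnau1ap was not (-0.32). Secisbp2, which binds the selenocysteine insertion element, was at 6.14 FPKM on NL-SFMA and 8.88 on SFMA, and Pstk, a kinase of the selenocysteine tRNA, at 3.95 and 6.43. In NADPH supply 1 of 7 was lower (Taldo1 of the pentose phosphate pathway, 76.4 FPKM, against 193), near the same 15.1%. Idh1, the cytosolic isocitrate dehydrogenase, was at 204 FPKM on NL-SFMA and 175 on SFMA. Taldo1 was inside 2-fold with the length trend removed (-0.62) and Idh2, the mitochondrial relative of Idh1, was then past it (-1.33). Idh2 was at 13.5 FPKM on NL-SFMA and 27.3 on SFMA, and transketolase (Tkt) at 188 and 254. Of other redox genes 4 of 10 were lower, beside 15.1% of all tested genes. They were Park7, whose loss causes a familial form of Parkinson disease, at 37.6 FPKM on NL-SFMA and 137 on SFMA, Pon2, a mitochondrial lactonase (2.45 and 11.2), Mgst3, a microsomal glutathione transferase (29.2 and 74.4), and Msrb2, a methionine sulfoxide reductase (0.210 and 1.53). With the length trend removed 2 of 10 were lower, Park7 (-1.35) and Pon2 (-1.23), beside 7.42%, while Mgst3 (-0.44) and Msrb2 (-0.30) were inside 2-fold. The Msrb2 level on NL-SFMA rests on very few reads. Msrb1, the selenoenzyme of that family, was at 28.8 FPKM on NL-SFMA and 49.8 on SFMA. Pon2 was also lower on N-SFMA (2.49 FPKM) and L-SFMA (4.21 FPKM).

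**Figure D5:**
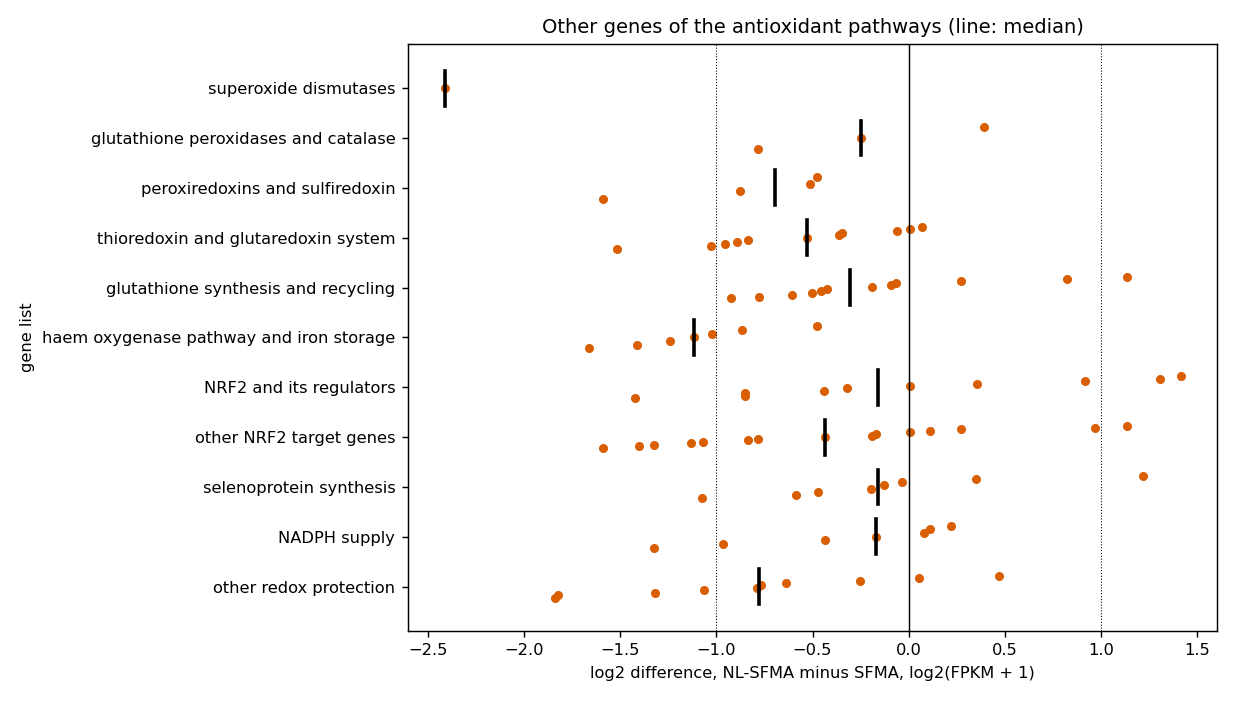
Log2 difference between NL-SFMA and SFMA on the log2(FPKM + 1) scale for other tested genes of the antioxidant pathways, by list, 1 point per gene, with a line at each list's median; dotted lines mark 2-fold. The haem and iron list has a median of -1.12, and the single dismutase partner Ccs lies at -2.41.

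Glial and progenitor markers also differed between hydrogels. The summed level of the 6 radial glia markers was 670 FPKM on N-SFMA, 648 on L-SFMA, 744 on NL-SFMA and 1510 on SFMA. That of the 5 astrocyte markers was 5.24, 7.83 and 4.95, against 9.34, and these markers were low in every library. Gfap, S100b and Gja1 were lower than on SFMA on all 3 modified hydrogels. Aldh1l1 was higher on N-SFMA (0.976 FPKM) and L-SFMA (1.18) than on SFMA (0.772). Aqp4, under 1 FPKM in every library, was at 0.192 on NL-SFMA and 0.029 on SFMA. Most of the radial glia sum was Vim, at 535, 486 and 633 FPKM, against 1088. On NL-SFMA the log2 difference of Vim from SFMA was -0.78, and -0.16 with the length trend removed. The median of the 6 radial glia markers was -1.10 there, and -0.87 with the trend removed. Of the other radial glia markers, 4 were lowest on NL-SFMA. They were Fabp7 (41.6 FPKM, against 264 on SFMA), Hopx (13.1, against 46.3), Sox2 (30.7, against 72.1) and Nes (14.9, against 17.4). For Nes the N-SFMA value was close, at 15.6. Slc1a3 went the other way, with NL-SFMA the highest of the modified hydrogels (10.6 FPKM, against 22.1 for SFMA). Its lowest value was 6.39 FPKM, in the N-SFMA library, and the L-SFMA library had 8.23. The 6 neuronal markers summed to 3506, 2784 and 2653 FPKM, against 2579, a sum led by Tubb3 (1659 on NL-SFMA, against 1882 on SFMA). The neuronal markers went apart on NL-SFMA, with 2 of 6 past 2-fold higher, beside 10.1% of all tested genes. These were Map2 (98.0 FPKM, against 24.7) and Dcx (266, against 68.3), while Rbfox3 was at 18.1, against 25.7. Map2 and Dcx have long gene models, of 8285 and 8857 bases. Their log2 differences of 1.94 and 1.95 were 1.19 and 1.15 with the length trend removed. Map2 and Dcx were also 2-fold higher on N-SFMA (1.16 and 1.03) and on L-SFMA (1.27 and 1.23). There 0.855% and 3.32% of all tested genes were higher. With the trend removed 0 of the 6 neuronal markers were 2-fold higher on N-SFMA or L-SFMA, beside 1.07% and 2.31%. On NL-SFMA the median log2 difference from SFMA was -1.16 for tested oligodendrocyte lineage markers, -0.91 for dorsal forebrain and -0.67 for interneuron markers. It was 0.51 for excitatory cortical neuron markers. With the length trend removed these medians were -0.89, -0.90, -0.18 and 0.54. Mbp, Gad1, Lhx6, Neurod2 and Fezf2 went against the median of their list before the trend was removed. The part of these cell types in the antioxidant results was not tested.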

How the data were processed

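The deposited tables give, for each library, whole-number counts and FPKM values per Ensembl rat gene. Per the submitters' processing notes the tools were HISAT2 (no version given) and HTSeq 0.13.5, and the builds mRatBN7.2 and GRCh38 are named without a role. The strand setting, filters and the treatment of reads with several positions are not stated there or in the labels. The deposited FPKM equals the deposited count over gene model length and summed count, since the lengths recovered from both were whole to within 2e-09 bases. Differences were taken on log2(FPKM + 1) for genes that reach 1 FPKM in some library, and folds are ratios of CPM (each count over the summed count) with a Clopper-Pearson interval conditional on both counts (scipy 1.17.1). The length trend is a lowess fit with a span of 0.3 (statsmodels 0.14.6). Scaling alternatives used edgeR 4.0.16 and DESeq2 1.42.0. The calculation was tested on simulated data. All 10 members are named; from each pathway list the up to 4 other genes with the largest difference between NL-SFMA and SFMA and at least 5 FPKM in 1 library are named. Members, pathway lists and markers were chosen with earlier results of these data known. Where a symbol had more than 1 row, the one with the higher mean FPKM was used. RefSeq promoter windows are of the GRCr8 build, and none of their coordinates were joined to the deposited tables. Listed genes without a row were not analysed here.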

Additional observations from a re-analysis of the deposited data

Results flagged for a closer look

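The difference that goes with the same letter ran in opposite directions without and with the other letter for Prdx1 and Gclm. The counting intervals of the ratios given next all excluded a ratio of 1. The ratio for Prdx1 was 1.13 between NL-SFMA and L-SFMA and 0.437 between N-SFMA and SFMA, both of which add N. It was 1.10 between NL-SFMA and N-SFMA and 0.426 between L-SFMA and SFMA, both of which add L. The ratio for Gclm was 1.28 between NL-SFMA and L-SFMA and 0.786 between N-SFMA and SFMA. With the length trend removed, the log2 difference of Gclm between N-SFMA and SFMA was near 0 (-0.03), against 0.72 between NL-SFMA and L-SFMA. Prdx1 kept opposite directions in these pairs, at -0.78 and 0.59. With 1 library per hydrogel these differences were not tested.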

How the results depend on the processing

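No paired analysis was possible because each hydrogel has 1 library. The medians of the 10 genes kept their direction under all 7 alternatives in the 6 pairs of hydrogels. For the other pseudocounts and the missing filter this was fixed in advance. A pseudocount cannot change the sign of a gene's difference, and all 10 genes passed the filter. Only the scaling, mitochondrial and length alternatives could have changed a direction. Removing the length trend moved 43 of the 60 single values, more than any other alternative did. It gave 4 lower, 1 higher and a median of -0.77 for NL-SFMA against SFMA, 0 lower and -0.41 for N-SFMA against SFMA, and 0 lower and -0.46 for L-SFMA against SFMA. It gave 1 lower, 1 higher and -0.58 for NL-SFMA against N-SFMA, and 0 lower and -0.35 for NL-SFMA against L-SFMA. On NL-SFMA against SFMA 8 of 10 were lower under TMM scaling (Prdx1 at -0.98), DESeq2 size factors (Prdx1 at -0.95) and with mitochondrially encoded genes left out, where Prdx1 fell just inside 2-fold, and under a pseudocount of 5 FPKM, where Sod2 did. Summed with Prdx1l1, an alternative chosen after seeing the data, Prdx1 was at -0.98. For L-SFMA against SFMA the median was -0.72 under TMM and -0.74 under DESeq2 size factors. For NL-SFMA against L-SFMA, TMM gave 1 lower and -0.60, DESeq2 1 lower and -0.56, and leaving out mitochondrially encoded genes 1 lower, Hmox1 in each case. A pseudocount of 5 FPKM gave 0 lower there, 2 lower and -0.77 for NL-SFMA against N-SFMA, and -1.35 for NL-SFMA against SFMA. The median of all tested genes in NL-SFMA against L-SFMA was -0.13, but 0.02 with DESeq2 size factors. Over all tested genes in that pair 851 were lower and 108 higher, but 542 and 213 under DESeq2 size factors, 181 higher under TMM, and 366 and 261 without the length trend. Removing the trend gave 920 lower in place of 1872 for NL-SFMA against SFMA, 165 in place of 328 for N-SFMA, 161 in place of 377 for L-SFMA, and 303 in place of 692 for NL-SFMA against N-SFMA. A pseudocount of 5 FPKM gave 1048 lower and 455 higher for NL-SFMA against SFMA, where 1872 and 1251 are reported, and a pseudocount of 0.1 FPKM gave 647 lower and 331 higher for N-SFMA against SFMA, where 328 and 106 are. Over the 6 pairs, all 12 counts of all tested genes moved past 1.5 times with 5 FPKM and 10 with 0.1 FPKM. Of 60 single values per alternative, sign changes arose with the length trend removed for Gclm on L-SFMA (0.29 in place of -0.02), Txn1 on NL-SFMA against L-SFMA (0.02 in place of -0.37), and Gpx1 and Prdx1 on L-SFMA against N-SFMA (0.01 and 0.02, in place of -0.05 and -0.04). The cause of each shift was not tested. Hmox1 on NL-SFMA rests on 109 reads, the fewest of the 10.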
